A study of Mus musculus with 12 samples.

Results

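Polycomb and Trithorax proteins form the chromatin complexes described here, through the transcripts of 46 listed genes in 4 populations of mouse blood cells. Of the 46 genes, 44 were measured, among 18193 genes in all. A gene was read from the probe set that carries its symbol alone and has the highest mean over the 12 arrays. Rybp and Ash1l lack such a probe set and were not analysed here. The list was chosen by name, with earlier results of these data known. The measured members were 10 genes of PRC2, 17 of PRC1, 3 of the PR-DUB deubiquitinase, 11 of the KMT2/COMPASS methyltransferases, the Trithorax homologue Kmt2e and 2 H3K27 demethylases.

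Polycomb complexes keep developmental genes silent. PRC2 methylates histone H3 at lysine K27, PRC1 adds ubiquitin to histone H2A and compacts chromatin, and PR-DUB takes that ubiquitin off again. Trithorax complexes of the KMT2/COMPASS type methylate H3K4 at active genes and their enhancers, and KDM6 enzymes erase the H3K27 mark. In blood formation, both systems are known for their hold on Hox genes and on stem cell self-renewal.

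All cells came from C57Bl/6 mice of 10 to 12 weeks, with no treatment given in the labels. Haematopoietic stem cells (HSC, 3 arrays) were the marrow cells free of lineage markers that carried Kit, Sca1 and CD150 but no Flt3, and multipotent progenitors (MPP, 3 arrays) had the same profile with Flt3 in place of CD150. PreMegE cells (4 arrays), progenitors of platelets and red cells, were lineage-free marrow cells with Kit and CD150 and without Sca1, CD105 or CD41. CD4+ T cells (2 arrays) were spleen cells sorted by CD4 and by the absence of CD8, B220 and NK1.1. HSC and MPP belong to this study, whereas PreMegE and CD4+ T cells were taken from 2 earlier studies, so study and population cannot be told apart in 5 of the 6 comparisons. Nothing in the labels says that replicates were separate animals, so the p-values cover only the spread seen among these samples, which may be technical. In bulk RNA of sorted cells, fewer cells of a type and less RNA per cell cannot be told apart.

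Some markers of the sorts were measured, and not all followed the gates. Kit lay at 9.66 to 10.96 log2 intensity in the 3 marrow populations and at 2.89 and 4.03 in CD4+ T cells, and Flt3 at 9.95 to 10.10 in MPP and 5.19 to 6.82 elsewhere. Slamf1, which encodes CD150, was lowest in MPP. It lay at 6.67 to 7.05 in HSC, 3.53 to 3.86 in MPP, 6.58 to 7.02 in PreMegE and 7.07 to 7.25 in CD4+ T cells. Cd4 lay at 9.11 to 9.49 in CD4+ T cells and 4.50 to 5.13 elsewhere. Cd8a lay at 4.31 to 4.91 on all arrays. Itga2b, which encodes the CD41 that the PreMegE gate leaves out, lay at 8.14 to 8.82 in PreMegE, 10.45 to 10.63 in HSC, 7.70 to 7.89 in MPP and 4.91 to 5.28 in CD4+ T cells. Eng, which encodes CD105, lay at 7.93 to 8.38 in PreMegE, 7.50 to 8.11 in HSC and MPP and 5.17 to 6.23 in CD4+ T cells. All 5 measured T cell genes of 6 listed were called higher in CD4+ T cells than in HSC, MPP and PreMegE (17%, 15.5% and 16.3% of all genes). The 5 measured B cell genes of 6 listed had a summed intensity of 5241 to 6054 in CD4+ T cells against 77.5 to 1791 elsewhere. Nearly all of that sum came from Ighm (12.28 and 12.49 in CD4+ T cells), while Cd79a stood at 4.66 and 4.83 and Pax5 at 3.37 and 3.46. The median of the 5 was 6.45 to 6.76 in CD4+ T cells and 3.44 to 4.30 elsewhere. In CD4+ T cells 4 were called higher than in HSC, 3 than in MPP and 4 than in PreMegE (17%, 15.5% and 16.3% of all genes). Against HSC 1 was called lower (20.8% of all genes). Erythroid genes (5 of 6 measured) summed to 2135 to 3585 in PreMegE and 64.3 to 1079 elsewhere. Their median did not follow that sum. It lay at 3.08 to 3.37 in PreMegE, 4.43 to 5.07 in CD4+ T cells, 2.97 to 5.53 in HSC and 3.03 to 4.05 in MPP. For PreMegE, erythroid calls were 1 higher and 0 lower against HSC (11.9% and 17% of all genes), and 2 and 0 against MPP (13.5% and 19.5%). CD4+ T cells against PreMegE gave 2 higher and 1 lower, all at least 2-fold (16.3% and 16.8% of all genes were called at any fold). The 5 megakaryocyte genes summed to 2300 to 2801 in HSC and 83.5 to 488 elsewhere, and 6 macrophage genes to 93.1 to 499 on all arrays. Neutrophil genes summed to 4209 on HSC replicate 2 against 523 and 436 on the other HSC arrays, to 618 to 2408 in PreMegE, 131 to 286 in MPP and 93.1 to 147 in CD4+ T cells. Of the 7 neutrophil genes, 6 were called higher in PreMegE than in MPP (13.5% of all genes). HSC replicates 2 and 3 had Xist at 2.45 and 2.59 and the Y-linked Eif2s3y at 7.46 and 8.47, while the other 10 arrays had Xist at 10.91 to 12.44. Beta-actin signal at the 3' end over that at the 5' end, a measure of RNA integrity given on the log2 scale, was 2.36 to 2.77 in HSC and MPP, 3.49 to 4.65 in PreMegE and 0.99 to 1.13 in CD4+ T cells. The part of these measures in the results below was not tested.

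By the brightest probe sets, CD4+ T cells differed from the marrow populations by higher Ezh1, Phf1, Cbx7, Phc3 and Pcgf1 and lower Ezh2, Phc1, Pcgf5, Kdm2b and Wdr5. No further probe set of Ezh1, Phc3 or Wdr5 was called on the same side, and that of Phc3 was called on the opposite side against MPP. Against HSC, no further probe set of Pcgf5 or Kdm2b was called. Ezh2, Phf1, Phc1 and Pcgf1 had a single probe set each. PreMegE had the highest Jarid2 and Kmt2e, and shared with CD4+ T cells a higher Kmt2c and Asxl2 and a lower Cbx6 than HSC and MPP. The other probe set of Cbx6 was not called in these comparisons. No further probe set of Jarid2 or Asxl2 was called for PreMegE against HSC. For PreMegE against MPP, 1 of each was called on the same side. Between HSC and MPP only the higher Asxl1 of HSC held in every fit of the same probe set, and no further probe set of Asxl1 was called there.

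Levels are log2 intensities, on which 1 unit is a 2-fold change, and each difference is the first population named minus the second, from limma with p-values adjusted over all 18193 genes. A member was called at an adjusted p under 0.05. By a moderated F test over the 4 populations, 34 of the 44 members (77.3%) were called, against 50.1% of all genes. The population with the highest mean among these 34 was PreMegE for 13, MPP for 10, CD4+ T cells for 8 and HSC for 3. With genes under the lower quartile of mean level left out, the F test called 35 of the 44 members and 64.9% of the genes kept. Only Pcgf1 in HSC had a mean below the lower quartile over genes of its population.

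Between MPP and HSC, 9 members were called, 4 higher and 5 lower in MPP, against 11.3% of all genes (6.38% higher, 4.93% lower). Between PreMegE and HSC 25 were called, 16 higher and 9 lower, against 28.9% of all genes (11.9% higher, 17% lower), and between PreMegE and MPP 15, with 9 higher and 6 lower, against 33% (13.5% and 19.5%). CD4+ T cells differed from HSC in 25 members, 14 higher and 11 lower, against 37.8% of all genes (17% higher, 20.8% lower). They differed from MPP in 27, with 13 higher and 14 lower, against 35.5% (15.5% and 20%), and from PreMegE in 21, with 8 higher and 13 lower, against 33.1% (16.3% and 16.8%). Arrays of the populations compared did not overlap for 19 members between MPP and HSC (29.8% of all genes), 24 between PreMegE and HSC (31.6%) and 18 between PreMegE and MPP (39.3%). For CD4+ T cells they did not overlap for 33 against HSC (54.3%), 34 against MPP (57.8%) and 26 against PreMegE (43.9%). The median difference of the 44 members and of all genes was 0.01 and -0.03 for MPP against HSC, 0.23 and -0.01 for PreMegE against HSC, and 0.14 and 0.02 for PreMegE against MPP. For CD4+ T cells these medians were 0.03 and -0.06 against HSC, 0.07 and -0.02 against MPP, and -0.26 and -0.06 against PreMegE. With genes under the lower quartile of mean level left out, larger shares of the genes kept were called. In the marrow, in the order above, they were 15.3%, 38.1% and 43%, beside 9, 25 and 15 of the 44 members. For CD4+ T cells they were 49%, 46.4% and 43.5%, beside 26, 27 and 20 members. Shares of all genes given elsewhere are without that filter. The comparisons share arrays and are no independent evidence of each other.

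Of these 122 calls, 71 held, that is, they stayed called on the same side with each array left out in turn, with HSC represented by replicate 1 alone, under quantile and cyclic loess rescaling, and in the other fits that keep the probe set. The fit with HSC replicate 1 alone takes its spread from the other populations, so that this array is assumed to vary as they do. A call can end there through the smaller number of arrays with the difference as large as before. Without counting that fit, 75 of the 122 held, and the 4 that it alone ended were Pcgf5, Ash2l and Dpy30 in PreMegE against HSC and Phc2 in CD4+ T cells against HSC. Held calls were 1 of 9 for MPP against HSC, 9 of 25 for PreMegE against HSC, 10 of 15 for PreMegE against MPP, 18 of 25, 20 of 27 and 13 of 21 for CD4+ T cells against HSC, MPP and PreMegE. The MPP against HSC count fell to 5, 3 and 4 without HSC replicate 1, 2 or 3 and to 2 with any 1 of the 3 MPP arrays left out. Without HSC replicate 2, the PreMegE against HSC count was 16. Rescaling moved the balance of directions. Quantile scaling gave 3 higher and 8 lower for MPP against HSC, 16 and 5 for PreMegE against MPP, and 7 and 18 for CD4+ T cells against PreMegE, and cyclic loess gave 3 and 8, 18 and 5, and 8 and 13.

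**Figure D1:**
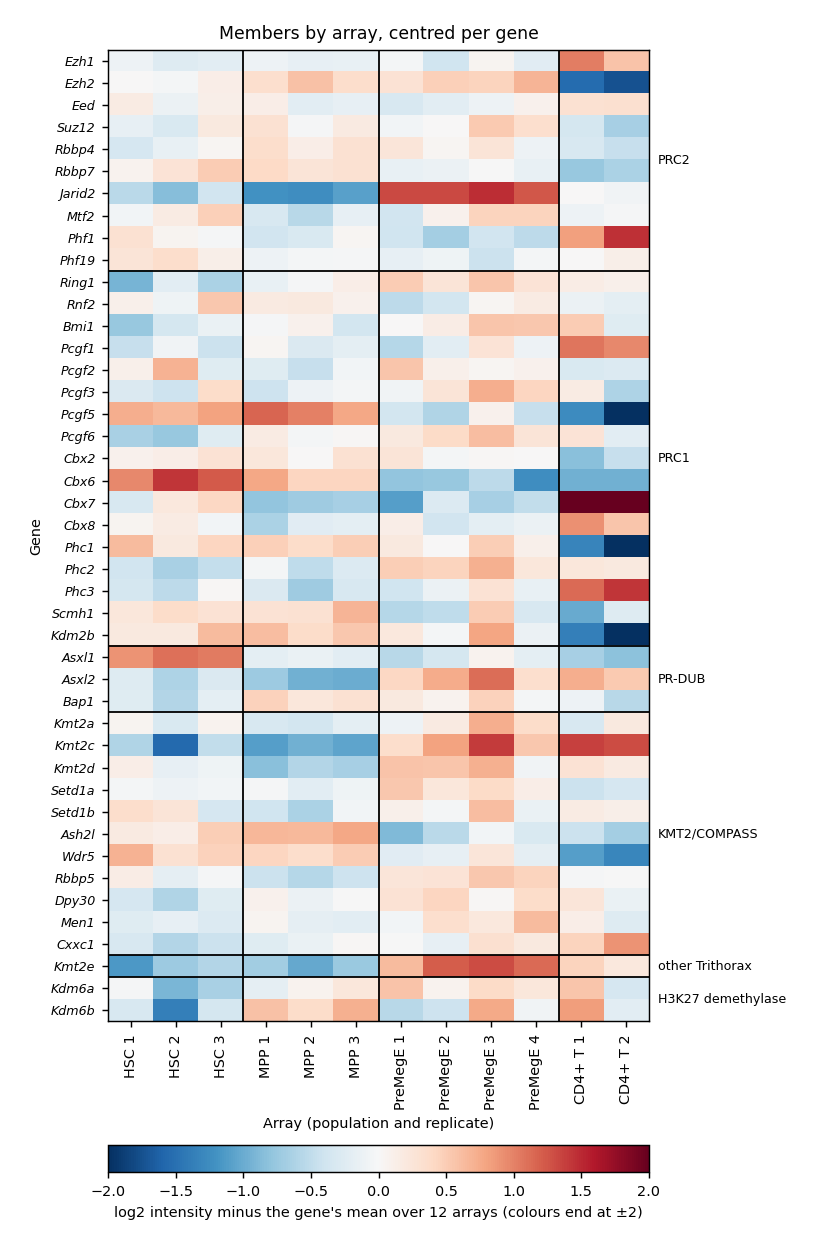
Heat map of the 44 measured members (rows, grouped by complex) on the 12 arrays (columns), as log2 intensity minus the gene's mean over the arrays, with colours ending at 2 units either way. The strongest colours lie in the CD4+ T cell columns (Cbx7 high, Pcgf5, Phc1 and Kdm2b low) and in the Jarid2, Kmt2c, Kmt2e and Cbx6 rows of the marrow populations.

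The heat map of all members by array shows that members of 1 complex did not move as a block. Some paralogues that occupy the same seat in a complex went opposite ways in CD4+ T cells. Ezh1 and Ezh2 in PRC2 and Cbx6 and Cbx7 in PRC1 are the pairs the account opens with, so their promoters are shown. RefSeq promoter windows on GRCm38.p6 were found for 37 of the 46 genes. Each line runs 5′ to 3′ on the gene's strand, from 230 bases before to 20 bases after its annotated start, and capitals mark matches to the motifs searched.
Ezh1: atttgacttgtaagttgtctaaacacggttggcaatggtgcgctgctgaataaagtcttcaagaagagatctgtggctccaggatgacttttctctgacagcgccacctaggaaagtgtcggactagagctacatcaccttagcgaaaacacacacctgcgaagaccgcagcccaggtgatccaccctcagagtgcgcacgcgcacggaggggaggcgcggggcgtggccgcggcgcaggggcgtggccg
Ezh2: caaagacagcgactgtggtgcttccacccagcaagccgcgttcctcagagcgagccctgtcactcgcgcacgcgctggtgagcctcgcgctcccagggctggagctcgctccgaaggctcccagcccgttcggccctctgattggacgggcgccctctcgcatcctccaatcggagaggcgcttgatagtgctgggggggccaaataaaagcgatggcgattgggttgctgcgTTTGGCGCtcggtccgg
Cbx6: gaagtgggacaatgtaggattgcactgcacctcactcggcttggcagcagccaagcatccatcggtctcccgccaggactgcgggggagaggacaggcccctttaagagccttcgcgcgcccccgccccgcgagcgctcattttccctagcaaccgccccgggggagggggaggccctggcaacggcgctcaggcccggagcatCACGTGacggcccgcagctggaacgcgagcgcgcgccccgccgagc
Cbx7: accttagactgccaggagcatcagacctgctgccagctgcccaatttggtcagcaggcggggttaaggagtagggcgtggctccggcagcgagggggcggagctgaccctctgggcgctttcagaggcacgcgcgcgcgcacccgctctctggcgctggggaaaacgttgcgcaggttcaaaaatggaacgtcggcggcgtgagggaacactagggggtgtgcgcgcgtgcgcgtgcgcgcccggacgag
The windows lie at chr11:101226444-101226693, minus strand (Ezh1), chr6:47595011-47595260, minus strand (Ezh2), chr15:79834314-79834563, minus strand (Cbx6) and chr15:79932627-79932876, minus strand (Cbx7). Cbx6 and Cbx7 thus lie on the same strand of chromosome 15. Motifs were sought on both strands of the full windows of 300 bases. The E2F-type words TTTCCCGC, TTTGGCGC and TTCCCGCC, which can overlap each other, occurred in 6 members (Ezh2, Suz12, Phf19, Pcgf5, Scmh1 and Asxl1), or 11.5% of 52 windows against 3.21% of all 32851 promoter windows. The E-box CACGTG was in 19.2% of the members' windows and 7.15% of all. Ezh1 and Cbx7 held none of these words, Ezh2 held an E2F-type word and Cbx6 an E-box. The median number of CpG dinucleotides was 25.5 in the members' windows and 7.0 in all, which sets a different base composition beside these shares. A match is a description of the letters and not of binding.

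Of the 10 PRC2 members, higher and lower calls were 0 and 1 for MPP against HSC, 2 and 3 for PreMegE against HSC, 1 and 1 for PreMegE against MPP, and 3 and 2, 3 and 4, and 3 and 5 for CD4+ T cells against HSC, MPP and PreMegE. In that order, the shares called in the marrow were 10%, 50% and 20%, against 11.3%, 28.9% and 33% of all genes. For CD4+ T cells they were 50%, 70% and 80%, against 37.8%, 35.5% and 33.1%. The enzymes differed between marrow and T cells. Ezh2, the main H3K27 methyltransferase of dividing cells, was lower in CD4+ T cells than in all 3 marrow populations, and its paralogue Ezh1 was higher. Ezh2 read 9.79, 9.74 and 9.91 in HSC, 10.11, 10.37 and 10.13 in MPP, 8.24 and 8.04 in CD4+ T cells and 10.08, 10.26, 10.23 and 10.46 in PreMegE. Both T cell arrays lay far below every marrow array. The difference was -1.67 ± 0.17 (SE, adjusted p = 7.16e-07) against HSC, -2.07 ± 0.17 (SE, adjusted p = 7.44e-08) against MPP and -2.12 ± 0.16 (SE, adjusted p = 2.57e-08) against PreMegE, and all 3 calls held. Ezh2 rested on a single probe set. Within the marrow its MPP against HSC difference was 0.39 (95% interval 0.07 to 0.71, adjusted p = 0.115), with no overlap between those arrays.

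Ezh1, known as the enzyme of resting cells, read 8.08, 7.93 and 7.98 in HSC, 8.09, 8.03 and 8.03 in MPP, 9.21 and 8.77 in CD4+ T cells and 8.14, 7.79, 8.24 and 7.96 in PreMegE. The marrow arrays formed a narrow band from 7.79 to 8.24, and both T cell arrays lay above it. Differences were 0.99 ± 0.18 (SE, adjusted p = 0.000329) against HSC, 0.94 ± 0.18 (SE, adjusted p = 0.000548) against MPP and 0.95 ± 0.17 (SE, adjusted p = 0.000319) against PreMegE, and the calls held. The next brightest of its 4 probe sets gave 0.97 ± 0.36 (SE, adjusted p over probe sets = 0.0619) against HSC, on the same side but not called. Against PreMegE it gave 0.53. None of the 3 further probe sets was called against HSC, MPP or PreMegE, so the Ezh1 calls rest on 1 of 4 probe sets. Among HSC, MPP and PreMegE no difference of Ezh1 was called, with MPP against HSC at 0.05 (95% interval -0.29 to 0.39, adjusted p = 0.91). Beside this change, the 13 cell cycle genes had medians of 7.10 to 7.36 in CD4+ T cells, 8.99 to 9.22 in PreMegE, 9.56 to 9.63 in MPP and 10.12 to 10.46 in HSC. Of the 13, 12 were called lower in CD4+ T cells than in HSC, 12 than in MPP and 11 than in PreMegE (20.8%, 20% and 16.8% of all genes). Their part in the Ezh1 and Ezh2 differences was not tested.

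The other core subunits moved less. The histone chaperone Rbbp7 read 12.28, 12.48 and 12.73 in HSC, 12.62, 12.47 and 12.52 in MPP, 11.45 and 11.57 in CD4+ T cells and 12.06, 12.10, 12.20 and 12.06 in PreMegE, with both T cell arrays lowest. It was lower in CD4+ T cells, with differences of -0.98 ± 0.16 (SE, adjusted p = 0.000142) against HSC and -1.02 ± 0.16 (SE, adjusted p = 0.000104) against MPP, calls that held and that the second probe set shared (-1.31 ± 0.22 SE, adjusted p over probe sets = 0.000475 against MPP). Eed, which reads the H3K27 mark, spanned 9.09 to 9.74 on the 12 arrays and was not called by the F test (adjusted p = 0.138). Its call for CD4+ T cells against PreMegE (0.45, adjusted p = 0.0486) ended without each array of those populations (adjusted p = 0.0531 to 0.178) except PreMegE replicate 4, and on dropping HSC replicate 1 or 3, or MPP replicate 2 or 3 (adjusted p = 0.0541 to 0.0639). Suz12, the scaffold of the complex, was -0.72 in CD4+ T cells against PreMegE by its brightest probe set (adjusted p = 0.0106), and this ended without CD4+ T cell replicate 2 (-0.56, adjusted p = 0.135). Its 5 further probe sets were divided. On the opposite side 2 were called, at 1.34 ± 0.43 (SE, adjusted p over probe sets = 0.0335) and 1.40 ± 0.44 (SE, adjusted p over probe sets = 0.0294). Another 2 were called on the same side, at -0.63 ± 0.17 (SE, adjusted p over probe sets = 0.0116) and -1.38 ± 0.21 (SE, adjusted p over probe sets = 0.000243), and the last was not called. Rbbp4, the paralogue of Rbbp7, had -0.50 by the brightest probe set (adjusted p = 0.0263) and 1.43 ± 0.19 (SE, adjusted p over probe sets = 6.37e-05) by the next, while its other 2 probe sets were not called. That Rbbp4 call also ended under cyclic loess (-0.32, adjusted p = 0.122), without PreMegE replicate 1 (-0.46, adjusted p = 0.0588), without CD4+ T cell replicate 1 (-0.58, adjusted p = 0.0597) or without CD4+ T cell replicate 2 (-0.43, adjusted p = 0.174). No direction is therefore given for Suz12 or Rbbp4.

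Among the accessory subunits that steer PRC2 to its targets, Jarid2 set PreMegE apart. It read 8.35, 8.03 and 8.51 in HSC, 7.67, 7.65 and 7.80 in MPP, 8.90 and 8.82 in CD4+ T cells and 10.20, 10.20, 10.36 and 10.13 in PreMegE. All 4 PreMegE arrays lay above every other array, the MPP arrays were lowest, and no populations overlapped. PreMegE exceeded HSC by 1.93 ± 0.14 (SE, adjusted p = 7.84e-08) and MPP by 2.52 ± 0.14 (SE, adjusted p = 2.08e-09), and CD4+ T cells exceeded MPP by 1.15 ± 0.17 (SE, adjusted p = 4.34e-05) and were lower than PreMegE (-1.36 ± 0.16 SE, adjusted p = 4.46e-06). These 4 calls held. The second of 3 probe sets agreed for PreMegE against MPP (1.16 ± 0.29 SE, adjusted p over probe sets = 0.0079) and was not called for PreMegE against HSC (0.50 ± 0.29 SE, adjusted p over probe sets = 0.277). For CD4+ T cells against MPP it gave 0.24 and was not called, while the last probe set was called on the same side. Against PreMegE neither was called with p adjusted over probe sets, the second at -0.93.

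Phf1, a Tudor-domain partner of PRC2 with a single probe set, was highest in CD4+ T cells. Its values were 5.46, 5.20 and 5.13 in HSC, 4.77, 4.85 and 5.19 in MPP, 5.97 and 6.60 in CD4+ T cells and 4.74, 4.47, 4.76 and 4.62 in PreMegE. The T cell arrays lay above all others. The differences of 1.02 ± 0.21 (SE, adjusted p = 0.000797) against HSC, 1.35 ± 0.21 (SE, adjusted p = 6.68e-05) against MPP and 1.64 ± 0.19 (SE, adjusted p = 5.38e-06) against PreMegE all held. Its paralogue Mtf2 was not called in any comparison by its brightest probe set (means 9.57 ± 0.27 in HSC, 9.02 ± 0.20 in MPP, 9.31 ± 0.05 in CD4+ T cells and 9.52 ± 0.39 in PreMegE). The next 3 probe sets of Mtf2 were all called higher in PreMegE than in MPP, at 1.43 ± 0.15 (SE, adjusted p over probe sets = 9.25e-06), 0.89 ± 0.29 (SE, adjusted p over probe sets = 0.0346) and 1.12 ± 0.23 (SE, adjusted p over probe sets = 0.00265). Phf19, the last of these paralogues, lay between 5.04 and 5.82 on all arrays, and its lower level in PreMegE than in HSC (-0.42, adjusted p = 0.0281) ended under quantile normalisation (-0.35, adjusted p = 0.114), with HSC replicate 1 alone (-0.43, adjusted p = 0.181), without HSC replicate 1 (-0.42, adjusted p = 0.077), without HSC replicate 2 (-0.37, adjusted p = 0.103) or without PreMegE replicate 3 (-0.34, adjusted p = 0.063).

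**Figure D2:**
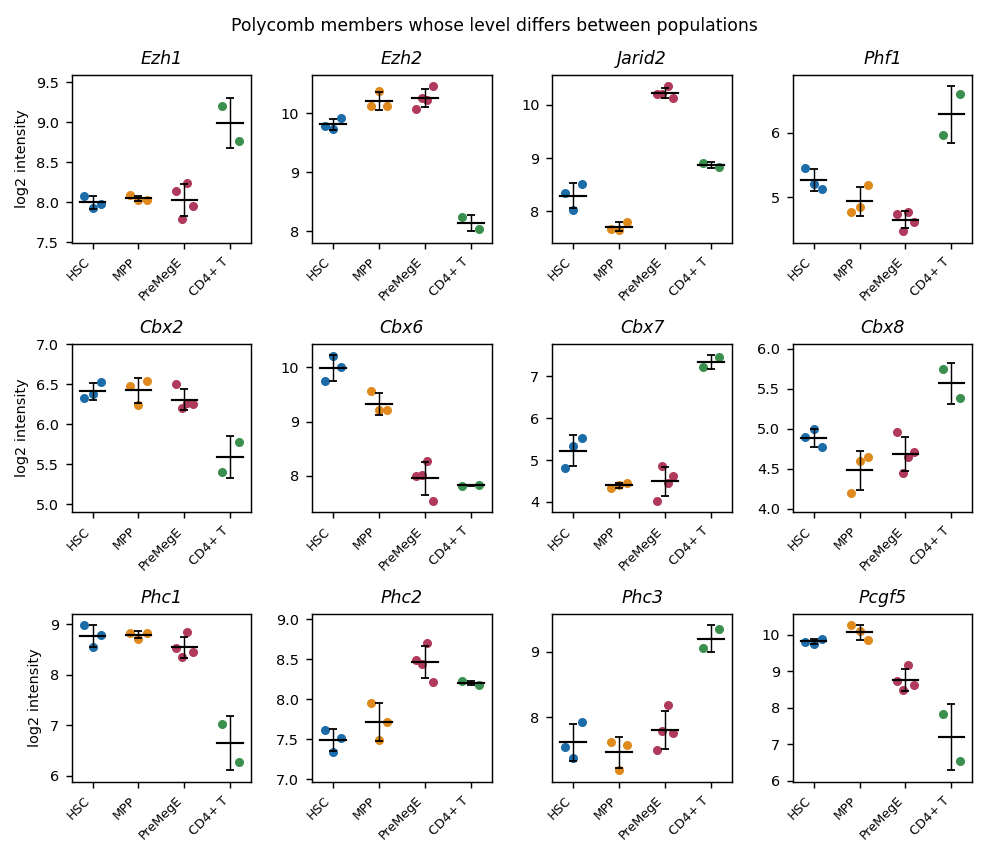
Log2 intensity of 12 Polycomb members on each array (points) by population, with the mean (long bar) and SD (error bar); the vertical axes differ between panels. Ezh1, Phf1, Cbx7, Cbx8 and Phc3 are highest in CD4+ T cells, Ezh2, Cbx2, Phc1 and Pcgf5 are lowest there, Jarid2 and Phc2 are highest in PreMegE, and Cbx6 steps down from HSC.

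The plot of single Polycomb members by population shows the same seat-by-seat pattern in PRC1. Of its 17 members, higher and lower calls were 2 and 2 for MPP against HSC, 4 and 3 for PreMegE against HSC, 1 and 3 for PreMegE against MPP, and 7 and 6, 4 and 6, and 4 and 4 for CD4+ T cells against HSC, MPP and PreMegE. In that order, the shares called in the marrow were 23.5%, 41.2% and 23.5%, against 11.3%, 28.9% and 33% of all genes. For CD4+ T cells they were 76.5%, 58.8% and 47.1%, against 37.8%, 35.5% and 33.1%. The chromobox proteins of PRC1, which bind the H3K27 mark, differed in both directions. All 8 measured Cbx, Phc and Scmh1 genes were called between CD4+ T cells and HSC, against 37.8% of all genes. Of these 8, 4 were higher and 4 lower, and their arrays did not overlap (54.3% of all genes did not overlap between these populations). Of the 8 measured RING and PCGF genes, also part of PRC1, 4 were called in this comparison, 3 higher and 1 lower. Cbx7 read 4.80, 5.35 and 5.54 in HSC, 4.34, 4.41 and 4.46 in MPP, 7.22 and 7.46 in CD4+ T cells and 4.03, 4.85, 4.46 and 4.63 in PreMegE. Both T cell arrays exceeded every marrow array by more than 1 unit. It was higher in CD4+ T cells by 2.11 ± 0.24 (SE, adjusted p = 3.13e-06) against HSC, 2.94 ± 0.24 (SE, adjusted p = 8.96e-08) against MPP and 2.85 ± 0.23 (SE, adjusted p = 5.78e-08) against PreMegE, and the second probe set concurred in all 3 (1.01 ± 0.20 SE, adjusted p over probe sets = 0.00127 against HSC). Within the marrow, Cbx7 was lower in MPP than in HSC (-0.83 ± 0.21 SE, adjusted p = 0.0204), which was no longer called on dropping HSC replicate 2, HSC replicate 3 or a single MPP array (adjusted p = 0.0583 to 0.0831) or with HSC replicate 1 alone (-0.40, adjusted p = 0.599). Its lower level in PreMegE than in HSC (-0.74 ± 0.20 SE, adjusted p = 0.0111) ended with HSC replicate 1 alone (-0.31, adjusted p = 0.513) or without HSC replicate 3 (-0.58, adjusted p = 0.0623), and the other probe set gave -0.10 ± 0.16 (SE, adjusted p over probe sets = 0.76).

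Cbx6 differed from Cbx7 in CD4+ T cells, where it was lower. Its values were 9.74, 10.21 and 10.01 in HSC, 9.56, 9.21 and 9.22 in MPP, 7.82 and 7.83 in CD4+ T cells and 8.0, 8.02, 8.27 and 7.53 in PreMegE. The level was highest in HSC, lower in MPP, and lowest in PreMegE and CD4+ T cells, whose arrays overlapped. PreMegE was lower than HSC (-2.03 ± 0.18 SE, adjusted p = 5.54e-07) and MPP (-1.37 ± 0.18 SE, adjusted p = 1.93e-05), and CD4+ T cells differed from them by -2.17 ± 0.21 (SE, adjusted p = 6.50e-07) and -1.51 ± 0.21 (SE, adjusted p = 3.36e-05). These 4 calls held. In MPP against HSC, the lower Cbx6 (-0.66 ± 0.19 SE, adjusted p = 0.0355) ended with HSC replicate 1 alone (-0.41, adjusted p = 0.564), without HSC replicate 2 (-0.55, adjusted p = 0.149), without HSC replicate 3 (-0.65, adjusted p = 0.0795), without MPP replicate 2 (-0.60, adjusted p = 0.126) or without MPP replicate 3 (-0.60, adjusted p = 0.139). The other probe set of Cbx6, with means of 6.37 ± 0.42 in HSC, 6.39 ± 0.22 in MPP, 5.98 ± 0.14 in CD4+ T cells and 5.88 ± 0.59 in PreMegE, was called in none of them. CD4+ T cells differed from PreMegE by -0.13 (95% interval -0.57 to 0.30, adjusted p = 0.688).

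Cbx2 and Cbx8 were smaller changes. Cbx2 read 6.33, 6.38 and 6.53 in HSC, 6.47, 6.25 and 6.55 in MPP, 5.40 and 5.78 in CD4+ T cells and 6.50, 6.21, 6.27 and 6.26 in PreMegE, with the T cell arrays lowest, and was lower in CD4+ T cells than in HSC (-0.82 ± 0.17 SE, adjusted p = 0.00121) and MPP (-0.83 ± 0.17 SE, adjusted p = 0.00115). Cbx8 read 4.89, 4.99 and 4.77 in HSC, 4.19, 4.60 and 4.64 in MPP, 5.75 and 5.38 in CD4+ T cells and 4.96, 4.44, 4.64 and 4.71 in PreMegE and was higher in CD4+ T cells than in MPP (1.09 ± 0.20 SE, adjusted p = 0.000344) and PreMegE (0.88 ± 0.19 SE, adjusted p = 0.00143). These 4 calls held by the brightest probe sets. The remaining probe set of each gene was not called and leaned the other way (0.11 for Cbx2 against HSC and -0.01 for Cbx8 against MPP). The Cbx8 call against HSC (0.68) ended with HSC replicate 1 alone (0.67, adjusted p = 0.0866) or without CD4+ T cell replicate 1 (0.50, adjusted p = 0.141).

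The polyhomeotic proteins, which polymerise through SAM domains, also split. Phc1, on a single probe set, read 8.98, 8.54 and 8.78 in HSC, 8.83, 8.71 and 8.83 in MPP, 7.03 and 6.26 in CD4+ T cells and 8.54, 8.35, 8.84 and 8.44 in PreMegE. The T cell arrays lay below all marrow arrays, with differences of -2.12 ± 0.22 (SE, adjusted p = 1.19e-06) against HSC, -2.14 ± 0.22 (SE, adjusted p = 1.17e-06) against MPP and -1.90 ± 0.21 (SE, adjusted p = 2.43e-06) against PreMegE. Phc3 was the reverse, at 7.55, 7.38 and 7.93 in HSC, 7.63, 7.20 and 7.59 in MPP, 9.05 and 9.34 in CD4+ T cells and 7.51, 7.79, 8.19 and 7.76 in PreMegE, and was higher in CD4+ T cells by 1.57 ± 0.22 (SE, adjusted p = 3.26e-05), 1.72 ± 0.22 (SE, adjusted p = 1.39e-05) and 1.38 ± 0.21 (SE, adjusted p = 7.65e-05) against the same populations. All 6 calls held. The second probe set of Phc3 had means of 2.57 to 3.35, and was called on the opposite side against MPP (-0.77 ± 0.27 SE, adjusted p over probe sets = 0.0444).

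Phc2 was higher in PreMegE and, against HSC, in CD4+ T cells. It read 7.62, 7.34 and 7.52 in HSC, 7.96, 7.49 and 7.72 in MPP, 8.22 and 8.18 in CD4+ T cells and 8.49, 8.44, 8.70 and 8.22 in PreMegE, with all 4 PreMegE arrays above all HSC and MPP arrays, and was higher in PreMegE than in HSC (0.97 ± 0.16 SE, adjusted p = 0.000187) and MPP (0.74 ± 0.16 SE, adjusted p = 0.00144). Both calls held, and its second probe set concurred against HSC (0.64 ± 0.15 SE, adjusted p over probe sets = 0.00683) but was not called against MPP (0.28 ± 0.15 SE, adjusted p over probe sets = 0.196). CD4+ T cells exceeded HSC by 0.71 ± 0.19 (SE, adjusted p = 0.00582), with the second probe set also called (0.83 ± 0.18 SE, adjusted p over probe sets = 0.00267). With HSC replicate 1 alone that difference was 0.59 (adjusted p = 0.108), and it stayed called in the other fits that keep the probe set. Scmh1, which binds the polyhomeotic proteins, read 5.57, 5.70 and 5.64 in HSC, 5.63, 5.65 and 6.02 in MPP, 4.34 and 5.08 in CD4+ T cells and 4.78, 4.83, 5.84 and 5.02 in PreMegE. Its lower level in CD4+ T cells (-1.06 ± 0.29 SE, adjusted p = 0.0079 against MPP) ended without CD4+ T cell replicate 1 (-0.69, adjusted p = 0.146). A second probe set concurred (-1.71 ± 0.31 SE, adjusted p over probe sets = 0.000886 against MPP). The call against HSC (-0.92) ended with HSC replicate 1 alone (-0.86, adjusted p = 0.146) or without CD4+ T cell replicate 1 (-0.55, adjusted p = 0.251), and the second probe set gave -0.85 ± 0.31 (SE, adjusted p over probe sets = 0.0592). Scmh1 was also called lower in PreMegE than in MPP (-0.65 ± 0.24 SE, adjusted p = 0.0476), where the second probe set was called too (-1.40 ± 0.26 SE, adjusted p over probe sets = 0.0013). That call of the brightest probe set ended under quantile and cyclic loess scaling (-0.54 and -0.59), with HSC replicate 1 alone (-0.65), and without any 1 HSC, MPP or PreMegE array except PreMegE replicate 3 (-0.72 to -0.52, adjusted p = 0.0551 to 0.194).

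The RING and PCGF proteins form the ubiquitin ligase shared by all PRC1 forms. Rnf2, the main catalytic subunit, lay between 8.66 and 9.71 on the 12 arrays and was called in no comparison (F test adjusted p = 0.253). Its paralogue Ring1 read 5.20, 5.92 and 5.50 in HSC, 5.98, 6.11 and 6.27 in MPP, 6.29 and 6.24 in CD4+ T cells and 6.64, 6.39, 6.68 and 6.40 in PreMegE. HSC arrays were lowest and PreMegE arrays highest, with a difference of 0.99 ± 0.17 (SE, adjusted p = 0.000319) that held on its single probe set. Bmi1, the PCGF protein best known for stem cell self-renewal, read 8.52, 8.93 and 9.15 in HSC, 9.26, 9.37 and 8.91 in MPP, 9.78 and 9.04 in CD4+ T cells and 9.29, 9.42, 9.84 and 9.82 in PreMegE and was not called by the F test (adjusted p = 0.0507). Its PreMegE against HSC difference of 0.72 (adjusted p = 0.0175) ended without HSC replicate 1 (0.55, adjusted p = 0.108) or without PreMegE replicate 4 (0.65, adjusted p = 0.0533), and its second probe set gave -0.36 ± 0.24 (SE, adjusted p over probe sets = 0.364).

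Pcgf5, a PCGF protein of variant PRC1, was lower in PreMegE than in MPP and lowest in CD4+ T cells. It read 9.81, 9.74 and 9.90 in HSC, 10.26, 10.09 and 9.86 in MPP, 7.83 and 6.55 in CD4+ T cells and 8.72, 8.49, 9.18 and 8.63 in PreMegE. HSC and MPP arrays were highest, PreMegE arrays lay below them and T cell arrays lowest, although the T cell arrays differed by more than 1 unit. PreMegE was lower than MPP (-1.31 ± 0.24 SE, adjusted p = 0.00054), and CD4+ T cells were lower than MPP (-2.88 ± 0.29 SE, adjusted p = 9.78e-07) and PreMegE (-1.56 ± 0.28 SE, adjusted p = 0.0003). These calls held and the second probe set was called on the same side in all 3. The CD4+ T cell difference from HSC was larger by the brightest probe set (-2.63 ± 0.29 SE, adjusted p = 2.43e-06, held) than by the second (-0.44 ± 0.24 SE, adjusted p over probe sets = 0.214), which was not called. The PreMegE difference from HSC (-1.06 ± 0.24 SE, adjusted p = 0.00348) was as large with HSC replicate 1 alone (-1.06, adjusted p = 0.0731), the only fit of that probe set in which it was not called. For the same comparison, the second probe set gave 0.33 ± 0.20 (SE, adjusted p over probe sets = 0.309).

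Pcgf1 was higher in CD4+ T cells and Pcgf6 in PreMegE. Pcgf1, which joins the BCOR form of PRC1, was dim on its single probe set and read 3.04, 3.44 and 3.07 in HSC, 3.55, 3.22 and 3.31 in MPP, 4.57 and 4.46 in CD4+ T cells and 2.93, 3.30, 3.78 and 3.40 in PreMegE. Both T cell arrays exceeded all others, by 1.34 ± 0.22 (SE, adjusted p = 0.000137) against HSC, 1.16 ± 0.22 (SE, adjusted p = 0.000517) against MPP and 1.17 ± 0.21 (SE, adjusted p = 0.000326) against PreMegE, and the calls held. As HSC lay under the lower quartile over genes, that difference is no exact fold. Pcgf6, of the MGA and E2F6 form, read 7.17, 7.06 and 7.58 in HSC, 7.99, 7.78 and 7.85 in MPP, 8.09 and 7.61 in CD4+ T cells and 8.01, 8.19, 8.44 and 8.07 in PreMegE and was higher in PreMegE than in HSC (0.91 ± 0.17 SE, adjusted p = 0.000709), which held and which the second probe set shared (0.51 ± 0.14 SE, adjusted p over probe sets = 0.019). Pcgf2 and Pcgf3 were called in no comparison, with levels of 3.41 to 4.56 and 6.11 to 7.45.

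Kdm2b, the CpG-binding protein that brings variant PRC1 to CpG islands, read 10.03, 10.03 and 10.46 in HSC, 10.46, 10.21 and 10.37 in MPP, 8.46 and 7.82 in CD4+ T cells and 10.04, 9.80, 10.63 and 9.72 in PreMegE. T cell arrays were lowest, with differences of -2.04 ± 0.26 (SE, adjusted p = 1.09e-05) against HSC, -2.20 ± 0.26 (SE, adjusted p = 5.14e-06) against MPP and -1.91 ± 0.25 (SE, adjusted p = 1.36e-05) against PreMegE. These calls held, and the second probe set was called on the same side against MPP (-0.56 ± 0.18 SE, adjusted p over probe sets = 0.0307) and PreMegE (-1.78 ± 0.17 SE, adjusted p over probe sets = 2.71e-06). In the marrow the 2 probe sets of Kdm2b parted. PreMegE against HSC was -0.13 (95% interval -0.59 to 0.33, adjusted p = 0.729) by the brightest probe set and 1.40 ± 0.15 (SE, adjusted p over probe sets = 2.04e-05) by the other, whose means were 8.61 ± 0.17 in HSC, 8.79 ± 0.13 in MPP, 8.23 ± 0.02 in CD4+ T cells and 10.01 ± 0.24 in PreMegE. The probe set chosen for Kdm2b thus decides whether it counts as a PreMegE gene.

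PR-DUB, which removes the mark that PRC1 places, gave the single call between HSC and MPP that held. Of its 3 members, higher and lower calls were 1 and 1 for MPP against HSC, 2 and 1 for PreMegE against HSC, 1 and 0 for PreMegE against MPP, and 1 and 1, 1 and 2, and 0 and 1 for CD4+ T cells against HSC, MPP and PreMegE. In that order, the shares called in the marrow were 66.7%, 100% and 33.3%, against 11.3%, 28.9% and 33% of all genes. For CD4+ T cells they were 66.7%, 100% and 33.3%, against 37.8%, 35.5% and 33.1%. Asxl1, a cofactor of the enzyme and a gene often mutated in clonal blood disorders, read 11.03, 11.24 and 11.18 in HSC, 9.95, 10.01 and 9.93 in MPP, 9.48 and 9.32 in CD4+ T cells and 9.58, 9.79, 10.20 and 9.94 in PreMegE. The 3 HSC arrays lay above all other arrays, and the difference from HSC was -1.19 ± 0.16 (SE, adjusted p = 0.000152) for MPP, -1.27 ± 0.15 (SE, adjusted p = 1.19e-05) for PreMegE and -1.75 ± 0.18 (SE, adjusted p = 1.13e-06) for CD4+ T cells. These 3 calls held across arrays and scalings. The second probe set of Asxl1 did not share them, with means of 8.11 ± 0.29 in HSC, 8.33 ± 0.01 in MPP, 8.35 ± 0.26 in CD4+ T cells and 8.21 ± 0.23 in PreMegE and a difference of 0.22 ± 0.18 (SE, adjusted p over probe sets = 0.6) for MPP against HSC. The HSC level of Asxl1 therefore rests on 1 probe set.

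Asxl2, the paralogue of Asxl1, was higher in PreMegE and CD4+ T cells than in HSC and MPP. It read 7.34, 6.99 and 7.31 in HSC, 6.87, 6.63 and 6.60 in MPP, 8.32 and 8.12 in CD4+ T cells and 8.01, 8.33, 8.72 and 7.93 in PreMegE. PreMegE and T cell arrays lay above all HSC and MPP arrays, by 1.04 ± 0.18 (SE, adjusted p = 0.000473) and 1.01 ± 0.22 (SE, adjusted p = 0.00158) against HSC and by 1.54 ± 0.18 (SE, adjusted p = 8.23e-06) and 1.52 ± 0.22 (SE, adjusted p = 4.28e-05) against MPP, and the 4 calls held. The second of 5 probe sets concurred for CD4+ T cells (2.28 ± 0.28 SE, adjusted p over probe sets = 2.57e-05 against HSC) but was not called for PreMegE against HSC (0.52 ± 0.23 SE, adjusted p over probe sets = 0.147). Bap1, the deubiquitinase itself, read 8.65, 8.31 and 8.70 in HSC, 9.35, 9.12 and 9.19 in MPP, 8.78 and 8.34 in CD4+ T cells and 9.10, 8.96, 9.35 and 8.85 in PreMegE. Its call as higher in MPP than in HSC (0.67 ± 0.18 SE, adjusted p = 0.0226) ended with HSC replicate 1 alone (0.57, adjusted p = 0.289), without HSC replicate 2 (0.54, adjusted p = 0.107), without MPP replicate 1 (0.60, adjusted p = 0.0982) or without MPP replicate 3 (0.68, adjusted p = 0.068).

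**Figure D3:**
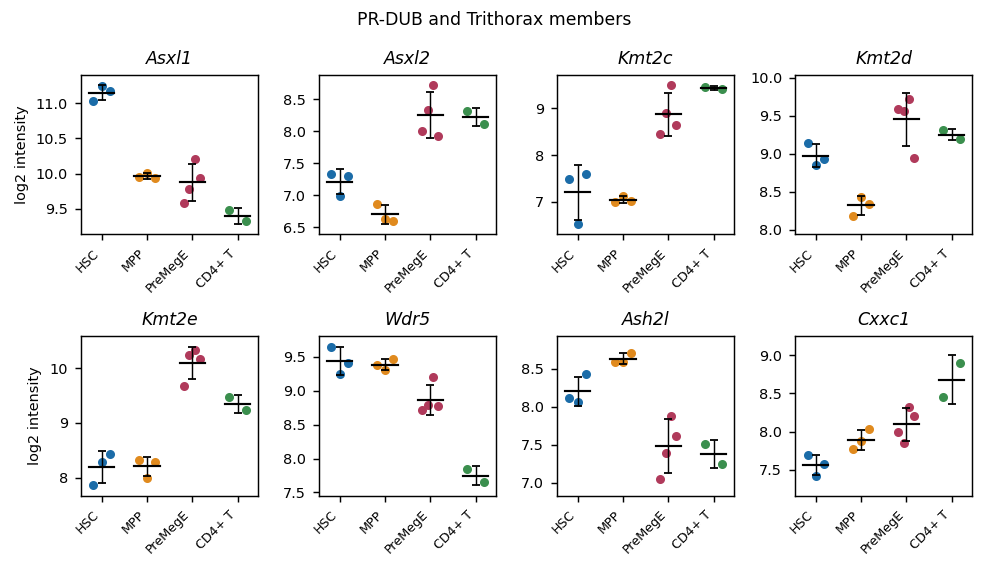
Log2 intensity of 2 PR-DUB and 6 Trithorax members on each array (points) by population, with the mean (long bar) and SD (error bar); the vertical axes differ between panels. Asxl1 is highest in HSC, Asxl2, Kmt2c and Kmt2e are higher in PreMegE and CD4+ T cells than in HSC and MPP, and Wdr5 is lowest in CD4+ T cells.

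Of the 11 KMT2/COMPASS members, higher and lower calls were 0 and 1 for MPP against HSC, 6 and 2 for PreMegE against HSC, 5 and 2 for PreMegE against MPP, and 2 and 2, 4 and 2, and 1 and 2 for CD4+ T cells against HSC, MPP and PreMegE. In that order, the shares called in the marrow were 9.09%, 72.7% and 63.6%, against 11.3%, 28.9% and 33% of all genes. For CD4+ T cells they were 36.4%, 54.5% and 27.3%, against 37.8%, 35.5% and 33.1%. Kmt2c and Kmt2e, both higher in PreMegE and CD4+ T cells in the plot of PR-DUB and Trithorax members by population, had further probe sets that were called on the same side. Kmt2c, which methylates H3K4 at enhancers, read 7.49, 6.54 and 7.60 in HSC, 7.00, 7.13 and 7.03 in MPP, 9.46 and 9.40 in CD4+ T cells and 8.45, 8.89, 9.49 and 8.64 in PreMegE. Every PreMegE and T cell array lay above every HSC and MPP array. PreMegE exceeded HSC by 1.66 ± 0.25 (SE, adjusted p = 0.000126) and MPP by 1.82 ± 0.25 (SE, adjusted p = 3.94e-05), and CD4+ T cells exceeded HSC by 2.22 ± 0.30 (SE, adjusted p = 2.17e-05) and MPP by 2.38 ± 0.30 (SE, adjusted p = 1.17e-05). The 4 calls held, and the second and the next of its 4 probe sets were called on the same side in all 4, for example at 2.53 ± 0.35 (SE, adjusted p over probe sets = 0.00017) for PreMegE against HSC.

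Kmt2e, a Trithorax homologue known to be needed for normal blood formation, read 7.87, 8.30 and 8.44 in HSC, 8.33, 8.0 and 8.29 in MPP, 9.47 and 9.24 in CD4+ T cells and 9.67, 10.23, 10.33 and 10.16 in PreMegE. PreMegE arrays were highest, T cell arrays lay between, and HSC and MPP arrays overlapped at the bottom. It was higher in PreMegE than in HSC (1.90 ± 0.18 SE, adjusted p = 1.61e-06) and MPP (1.89 ± 0.18 SE, adjusted p = 1.00e-06), and higher in CD4+ T cells than in HSC (1.15 ± 0.22 SE, adjusted p = 0.000531) and MPP (1.14 ± 0.22 SE, adjusted p = 0.000584). These calls held. The next 3 of its 6 probe sets were called on the same side for PreMegE against HSC, at 1.49 ± 0.18 (SE, adjusted p over probe sets = 5.91e-05), 1.69 ± 0.31 (SE, adjusted p over probe sets = 0.00132) and 1.51 ± 0.30 (SE, adjusted p over probe sets = 0.00277). The second probe set also put Kmt2e lower in MPP than in HSC (-1.08 ± 0.19 SE, adjusted p over probe sets = 0.00373), where the brightest gave 0.01 (95% interval -0.41 to 0.43, adjusted p = 0.992). A dimmer probe set was called on the opposite side for PreMegE against MPP (-0.81 ± 0.17 SE, adjusted p over probe sets = 0.00311).

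Kmt2d, the paralogue of Kmt2c, had its lowest values in MPP. It read 9.14, 8.84 and 8.93 in HSC, 8.18, 8.43 and 8.34 in MPP, 9.30 and 9.20 in CD4+ T cells and 9.58, 9.56, 9.72 and 8.94 in PreMegE, and was higher than in MPP in PreMegE (1.13 ± 0.18 SE, adjusted p = 0.000111) and CD4+ T cells (0.93 ± 0.21 SE, adjusted p = 0.00219), which held. Its other probe set was not called in either, at 0.16 ± 0.27 (SE, adjusted p over probe sets = 0.724) and -0.43 ± 0.32 (SE, adjusted p over probe sets = 0.395). Kmt2a, the founding mammalian Trithorax gene, lay between 7.35 and 8.44 and was not called by the F test (adjusted p = 0.0939). Its call as higher in PreMegE than in MPP (0.58, adjusted p = 0.0284) ended without MPP replicate 1 (0.57, adjusted p = 0.0819), without MPP replicate 2 (0.54, adjusted p = 0.0949), without MPP replicate 3 (0.63, adjusted p = 0.0526), without PreMegE replicate 3 (0.44, adjusted p = 0.0701) or without PreMegE replicate 4 (0.56, adjusted p = 0.0645). Its second probe set was called for that comparison (0.68 ± 0.23 SE, adjusted p over probe sets = 0.0464). That probe set was also called higher in CD4+ T cells than in HSC (1.19 ± 0.28 SE, adjusted p over probe sets = 0.00463), MPP (1.45 ± 0.28 SE, adjusted p over probe sets = 0.00121) and PreMegE (0.77 ± 0.26 SE, adjusted p over probe sets = 0.0478). Setd1a, the enzyme of the bulk H3K4 mark, was lower in CD4+ T cells than in PreMegE (-0.70 ± 0.15 SE, adjusted p = 0.0018, held), while its second probe set was not called (-0.21 ± 0.26 SE, adjusted p over probe sets = 0.645). Its paralogue Setd1b was not called in any comparison by its brightest probe set (6.49 to 7.74). By its second probe set, however, PreMegE exceeded HSC (0.96 ± 0.24 SE, adjusted p over probe sets = 0.0109) and MPP (1.23 ± 0.24 SE, adjusted p over probe sets = 0.00169). CD4+ T cells were lower than PreMegE by that probe set (-1.0, adjusted p over probe sets = 0.0146).

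The 6 measured COMPASS subunits other than the enzymes, not all of them shared by every enzyme, did not move together. All 6 were called between PreMegE and HSC, against 28.9% of all genes. Rbbp5, Dpy30, Men1 and Cxxc1 were higher and Ash2l and Wdr5 lower, but none of these 6 calls held. The calls of Ash2l (-0.72) and Dpy30 (0.67) were lost only with HSC replicate 1 alone, where the differences were -0.63 and 0.61 (adjusted p = 0.132 and 0.0774). That of Wdr5 (-0.57) ended without HSC replicate 1 (-0.46, adjusted p = 0.0658). Cxxc1 (0.53) ended with HSC replicate 1 alone (0.41, adjusted p = 0.308), without HSC replicate 2 (0.46, adjusted p = 0.0811) or without PreMegE replicate 4 (0.50, adjusted p = 0.0518). Men1 (0.51) ended without any HSC array or PreMegE replicate 2 or 4 (0.39 to 0.54, adjusted p = 0.0576 to 0.101) and with HSC replicate 1 alone (adjusted p = 0.204). Rbbp5 (0.39) ended without HSC replicate 2 or 3, any MPP array or PreMegE replicate 3 or 4 (0.31 to 0.39, adjusted p = 0.0535 to 0.166) and with HSC replicate 1 alone (adjusted p = 0.528).

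Larger and held were the differences of Wdr5, Ash2l, Rbbp5 and Cxxc1 in other comparisons. Wdr5, the hub that binds the enzymes, read 9.65, 9.25 and 9.41 in HSC, 9.38, 9.30 and 9.47 in MPP, 7.85 and 7.65 in CD4+ T cells and 8.72, 8.79, 9.20 and 8.77 in PreMegE. T cell arrays were lowest, with differences of -1.69 ± 0.18 (SE, adjusted p = 1.90e-06) against HSC, -1.63 ± 0.18 (SE, adjusted p = 2.92e-06) against MPP and -1.12 ± 0.17 (SE, adjusted p = 8.52e-05) against PreMegE. The second probe set of Wdr5 leaned the same way without a call (-0.51 ± 0.22 SE, adjusted p over probe sets = 0.107 against HSC). Ash2l, which activates the enzymes, read 8.12, 8.06 and 8.43 in HSC, 8.59, 8.58 and 8.71 in MPP, 7.51 and 7.25 in CD4+ T cells and 7.05, 7.39, 7.88 and 7.62 in PreMegE, and was lower than in MPP in PreMegE (-1.14 ± 0.18 SE, adjusted p = 0.000128) and CD4+ T cells (-1.25 ± 0.22 SE, adjusted p = 0.000228). Its second probe set concurred for CD4+ T cells (-0.83 ± 0.25 SE, adjusted p over probe sets = 0.0252) and gave 0.49 ± 0.21 (SE, adjusted p over probe sets = 0.11) for PreMegE.

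Rbbp5, on a single probe set, read 7.89, 7.57 and 7.73 in HSC, 7.32, 7.17 and 7.33 in MPP, 7.72 and 7.73 in CD4+ T cells and 7.99, 8.01, 8.28 and 8.18 in PreMegE, with MPP arrays lowest, and was higher in PreMegE than in MPP (0.84 ± 0.14 SE, adjusted p = 0.000151). Cxxc1, the CpG-binding subunit of the SETD1 complexes, read 7.69, 7.42 and 7.57 in HSC, 7.77, 7.88 and 8.03 in MPP, 8.45 and 8.91 in CD4+ T cells and 8.0, 7.84, 8.32 and 8.21 in PreMegE. Its T cell arrays were highest, by 1.12 ± 0.19 (SE, adjusted p = 0.00019) against HSC, which held, while the second probe set gave 0.26 ± 0.20 (SE, adjusted p over probe sets = 0.407). Against MPP the difference was 0.79, a call that ended without CD4+ T cell replicate 2 (0.56, adjusted p = 0.0829).

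The H3K27 demethylases were both called by the F test, with adjusted p of 0.0377 for Kdm6a and 0.0342 for Kdm6b, and neither had a held call. Kdm6a, an X-linked gene that escapes X inactivation, read 8.0, 7.11 and 7.38 in HSC, 7.85, 8.10 and 8.24 in MPP, 8.58 and 7.70 in CD4+ T cells and 8.60, 8.09, 8.40 and 8.25 in PreMegE. HSC replicates 2 and 3, the arrays with low Xist and with Y-linked transcripts, were the lowest of all 12, and HSC replicate 1 lay among the other populations. The PreMegE against HSC difference of 0.84 ± 0.23 (SE, adjusted p = 0.0117) ended with HSC replicate 1 alone (0.34, adjusted p = 0.534) or without HSC replicate 2 (0.65, adjusted p = 0.0724). The second probe set was called for the same comparison (1.15 ± 0.27 SE, adjusted p over probe sets = 0.00831). Sex-linked transcripts and population cannot be told apart for Kdm6a in HSC beyond replicate 1.

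**Figure D4:**
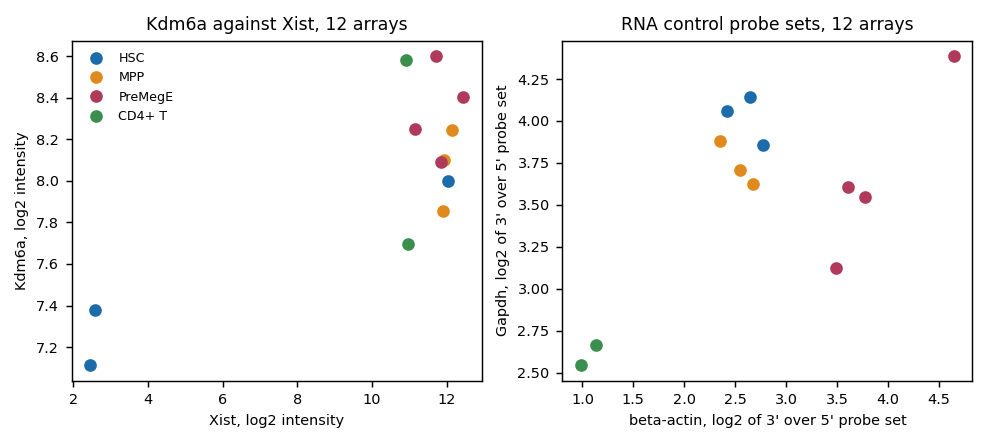
Left, Kdm6a against Xist log2 intensity on the 12 arrays, coloured by population; right, signal at the 3' end over the 5' end (log2) for the Gapdh control against the same for beta-actin. The 2 HSC arrays with Xist under 3 have the lowest Kdm6a values (7.11 and 7.38), and the beta-actin ratios separate CD4+ T cells (0.99 to 1.13) from PreMegE (3.49 to 4.65).

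The plot of Kdm6a against Xist shows that split beside the RNA control ratios. Kdm6b, the inducible H3K27 demethylase, read 8.05, 7.00 and 8.01 in HSC, 8.96, 8.74 and 9.08 in MPP, 9.21 and 8.15 in CD4+ T cells and 7.81, 7.96, 9.12 and 8.30 in PreMegE. MPP arrays lay above all HSC arrays, and the PreMegE and T cell arrays spanned over 1 unit each. MPP exceeded HSC by 1.24 ± 0.35 (SE, adjusted p = 0.0298), which was not called with HSC replicate 1 alone (0.88, adjusted p = 0.406), without HSC replicate 2 (0.90, adjusted p = 0.15), without MPP replicate 1 (1.22, adjusted p = 0.0904), without MPP replicate 2 (1.33, adjusted p = 0.0585) or without MPP replicate 3 (1.16, adjusted p = 0.113). The second of its 3 probe sets gave the same direction for MPP against HSC (1.01 ± 0.20 SE, adjusted p over probe sets = 0.00707), and was also called lower than MPP in PreMegE (-0.73 ± 0.19 SE, adjusted p over probe sets = 0.00977) and CD4+ T cells (-0.88 ± 0.22 SE, adjusted p over probe sets = 0.00824). The 11 immediate early genes, induced by stimulation or handling, had medians of 10.83 to 10.92 in MPP, 7.73 to 9.49 in HSC, 4.52 to 4.71 in PreMegE and 6.07 to 6.87 in CD4+ T cells. HSC replicate 2, with the lowest Kdm6b value of 7.00, was also the array with the high neutrophil sum. The part of either measure in the Kdm6b values was not tested.

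Across the members, how far probe sets of 1 gene concurred was itself measurable. Of the 44 members, 37 had several probe sets, with at most 6 and 116 in all. Of the 122 calls, 101 concerned a gene with another probe set. In 41 of the 101 at least 1 further probe set was called on the same side, and in 60 none was. A further probe set was called on the opposite side in 4, which were Suz12 and Rbbp4 in CD4+ T cells against PreMegE, Phc3 in CD4+ T cells against MPP and Kmt2e in PreMegE against MPP. The next brightest probe set had the same sign in 72 of the 101, and was called on the same side in 38, not called in 60 and called on the opposite side in 3. Where that probe set lay above the median gene, 31 of 62 were called on the same side, against 5 of 25 between the lower quartile and the median and 2 of 14 below the quartile.

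**Figure D5:**
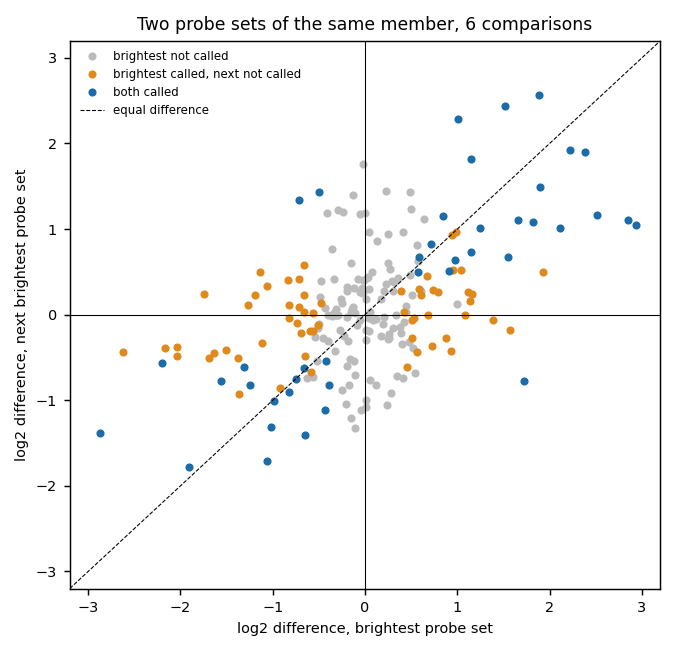
Log2 difference by the next brightest probe set (vertical) against that by the brightest (horizontal) for the members with several probe sets, in the 6 comparisons; blue points are called by both, orange points by the brightest alone, grey points not by the brightest, and the dashed line marks equal differences. Of the 101 called differences, 72 have the same sign on both axes and 3 are called in the opposite quadrants.

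The plot of the brightest against the next probe set shows that many next values stay near 0 while the brightest reach beyond 1 unit either way. Comparisons within a gene share RNA and arrays, so they bear on the probe sets and not on the animals.

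Further subunits and partners of these complexes were called in both directions. Of 31 listed, 29 were measured, and higher and lower calls were 0 and 4 for MPP against HSC, 5 and 5 for PreMegE against HSC, 7 and 5 for PreMegE against MPP, and 5 and 7, 8 and 6, and 3 and 7 for CD4+ T cells against HSC, MPP and PreMegE. As shares called, these were 13.8% against 11.3% of all genes, 34.5% against 28.9% and 41.4% against 33% in the marrow. They were 41.4% against 37.8%, 48.3% against 35.5% and 34.5% against 33.1% for CD4+ T cells. Of 24 calls of at least 2-fold in 12 of these genes, 16 held. Further probe sets of these genes were not examined. E2f6, the DNA-binding subunit of the PCGF6 form of PRC1, was lower in CD4+ T cells than in HSC (-2.16 ± 0.20 SE, adjusted p = 3.08e-07), MPP (-2.06 ± 0.20 SE, adjusted p = 5.63e-07) and PreMegE (-1.62 ± 0.19 SE, adjusted p = 4.17e-06). Sfmbt2, a partner of the PhoRC type, was higher in CD4+ T cells than in HSC by 2.00 ± 0.35 (SE, adjusted p = 0.000247). That difference ran from 1.20 to 2.80 over the fits of the same probe set. Kdm5b, which erases the H3K4 mark, was higher in PreMegE than in HSC (1.52 ± 0.19 SE, adjusted p = 1.89e-05) and MPP (1.47 ± 0.19 SE, adjusted p = 1.78e-05). These calls held. The call of Kmt2b, the closest paralogue of Kmt2a, as higher in CD4+ T cells than in MPP (1.20) ended without CD4+ T cell replicate 1 (0.87, adjusted p = 0.0984). The other genes called at least 2-fold somewhere were Auts2, L3mbtl3, Lcor, Mbd6, Mga, Ogt, Pagr1a and Sfmbt1.

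Many genes known as targets of both systems were lower in PreMegE and CD4+ T cells. Of 18 listed, 17 were measured, and the calls for CD4+ T cells were 10 lower against HSC, 9 lower against MPP and 10 lower against PreMegE, with 0 higher in each (20.8%, 20% and 16.8% of all genes were called lower). For PreMegE they were 8 lower and 1 higher against HSC as well as against MPP (17% and 19.5% of all genes were called lower). Of 37 calls of at least 2-fold in 9 of these genes, 36 held, and further probe sets of these genes were not examined. Hoxa9, a homeobox gene that KMT2A keeps on, was lower in PreMegE than in HSC (-1.82 ± 0.18 SE, adjusted p = 1.89e-06) and lower still in CD4+ T cells (-8.42 ± 0.21 SE, adjusted p = 1.84e-13), where its mean of 3.14 lay under the lower quartile over genes, so that the second value is no exact fold. Meis1, its cofactor, differed from HSC by -1.62 ± 0.19 (SE, adjusted p = 9.24e-06) in PreMegE. In MPP its difference from HSC (-1.05) ended with HSC replicate 1 alone (-0.85, adjusted p = 0.149). Mecom, a stem cell transcription factor, differed by -5.55 ± 0.21 (SE, adjusted p = 1.05e-10) between PreMegE and HSC. The other targets called at least 2-fold lower in PreMegE or CD4+ T cells were Eya1, Hmga2, Hoxa5, Hoxa10, Hoxb3 and Pbx3. These levels stand beside those of the complexes, and no link between them was tested.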

How the data were processed

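Total RNA of 12 sorted samples was measured on Affymetrix mouse arrays. The deposited values are linear intensities, summarised by RMA per the submitters' processing notes, and whether all 12 arrays were summarised together is not given in the sources used here. Log2 of the deposited intensities was taken, with no further normalisation or filter, and 0 columns were left unused. Arrays carry no read depth, so precision is set by how many arrays a population has. Of 45101 probe sets, 64 controls were left out, and 34945 carried 1 gene symbol, 932 several and 9160 none in GEO's platform annotation, which can be old. Each of 18193 genes was read from its brightest probe set.

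One limma model (version 3.58.1, R 4.3.3) held a mean per population over all 12 arrays, with two-sided tests, the moderated F test and Benjamini-Hochberg adjustment over genes, or over 45037 probe sets for single probe sets. The fit was tested on simulated data. A further probe set agreed if it was called on the same side and opposed if called on the other. Members called at least 2-fold apart anywhere, and the 2 of each complex with the smallest F p, were described in full. The members and lists were chosen with earlier results of these data known. PreMegE replicate 4 is described with the number 3 in the labels, so averaging it with replicate 3 was tried, beside other probe sets, scalings, filters, fits, a replicate block and each array left out. A comparison of protein sequences was not done. Ash1l and Rybp were not analysed here. Promoter windows came from RefSeq (GRCm38.p6), and those of Ash1l, Ash2l, Cbx2, Cxxc1, Kdm6b, Kmt2e, Pcgf1, Rybp and Setd1b were not used here.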

Additional observations from a re-analysis of the deposited data

Results flagged for a closer look

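Only PreMegE, with 4 arrays, could be searched for an array far from its group. Chance alone marks about 1 in 20 groups, and 2 of the 44 members were marked. Pcgf2 read 4.41 on PreMegE replicate 1 against 3.90 to 3.97 on the other 3 arrays. Wdr5 read 9.20 on PreMegE replicate 3 against 8.72 to 8.79 on the others. Without PreMegE replicate 3 the Wdr5 difference from CD4+ T cells remained called.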

How the results depend on the processing

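Counts of called members kept within 1.5 times under all alternatives tried except the following and some of the fits without 1 array. MPP against HSC gave 9 calls, against 4 by the next brightest probe set, 4 with each probe set tested on its own and 2 with HSC replicate 1 alone. PreMegE against HSC gave 25, against 15 by the next brightest probe set and 12 with HSC replicate 1 alone. PreMegE against MPP gave 15, against 23 after cyclic loess. The cause was not tested, beyond the smaller number of arrays in the HSC replicate 1 setting. Leaving out each array in turn gave 2 to 10 calls for MPP against HSC, 16 to 25 for PreMegE against HSC, 10 to 16 for PreMegE against MPP, 20 to 28, 21 to 28 and 15 to 22 for CD4+ T cells against HSC, MPP and PreMegE, and 31 to 37 for any difference. Values of single members turned sign only with another choice of probe set, 42 by the next brightest and 7 by the mean of all, among pairs called on at least 1 side. In MPP against HSC, the next brightest probe set turned the sign of Cbx6 (0.026), Asxl1 (0.22) and Kmt2e (-1.08). In PreMegE against HSC, the next brightest probe set turned the sign of Mtf2 (1.17), Bmi1 (-0.36), Pcgf5 (0.33), Kdm2b (1.40), Asxl1 (0.11), Bap1 (-0.068), Ash2l (0.41), Men1 (-0.27) and Cxxc1 (-0.038). In PreMegE against MPP, the next brightest probe set turned the sign of Bmi1 (-0.74), Phc3 (-0.71), Kdm2b (1.22) and Ash2l (0.49). In CD4+ T cells against HSC, the next brightest probe set turned the sign of Rbbp4 (1.20), Jarid2 (-0.43), Cbx2 (0.11), Cbx8 (-0.0054), Phc3 (-0.17), Asxl1 (0.25) and Kmt2d (-0.92). In CD4+ T cells against MPP, the next brightest probe set turned the sign of Suz12 (0.58), Rbbp4 (0.23), Phf19 (-0.82), Bmi1 (-1.06), Cbx2 (0.41), Cbx8 (-0.0058), Phc3 (-0.77), Asxl1 (0.022) and Kmt2d (-0.43). In CD4+ T cells against PreMegE, the next brightest probe set turned the sign of Eed (-0.61), Suz12 (1.34), Rbbp4 (1.43), Cbx2 (0.094), Cbx8 (-0.28), Phc3 (-0.063), Asxl1 (0.14), Asxl2 (1.76), Kmt2a (0.77) and Setd1b (-1.0). The mean of all probe sets turned Mtf2 (0.46), Kdm2b (0.64) and Men1 (-0.074) in PreMegE against HSC, Kdm2b (0.46) in PreMegE against MPP and Eed (-0.078), Rbbp4 (0.28) and Asxl2 (0.54) in CD4+ T cells against PreMegE. The cause was not tested.

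Whether replicate numbers pair the samples was not settled. Correlations of deviations from population means between same-numbered arrays ran from -0.119 to 0.413, and differently numbered arrays were not compared. With the replicate number as a block, calls were 8 for MPP against HSC, 21 and 14 for PreMegE against HSC and MPP, 27, 27 and 21 for CD4+ T cells against HSC, MPP and PreMegE, and 33 for any difference. The number of arrays, 2 for CD4+ T cells, limits the precision, and probe sets near the lower quartile over genes give no exact folds.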
